A study of Mus musculus with 18 samples.

Results

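Neutrophil granule genes were followed in RNA-seq libraries of CD4+ T cells enriched from mouse spleen. The 10 genes are Elane, Mpo, Ltf, Camp, Ngp, Lcn2, Mmp8, Mmp9, S100a8 and S100a9, out of 37991 genes listed in each count file, and all 10 passed the filter on low counts that 17240 genes passed. They were chosen on the difference between resting tolerized and resting naive samples, in which they stood out as genes of another blood cell type in a T cell preparation. That difference is therefore given as a description without a test, as is every comparison of the 10 genes that shares the resting samples. Tests of the 10 genes are restricted to the stimulated samples.

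The mice were Tg4-H2u animals of both sexes aged 6 to 12 weeks, with a transgenic TCR that recognizes a peptide of myelin basic protein. Tolerized mice had received repeated subcutaneous injections of the 4Y peptide in escalating doses, and naive mice had received PBS on the same schedule. The groups were resting naive (N0) and tolerized (T0) cells, cells taken 2 h after a final injection of 80 µg of 4Y peptide (NAg and TAg), and cells cultured for 2 h with 20 ng/ml PMA and 2 µM of the calcium ionophore A23187, abbreviated PI (NPI and TPI). Each of the 6 groups had 3 biological replicates. The kit that enriched the CD4+ T cells works by removing other cells, so that cells escaping removal stay in the sample.

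Neutrophils are short-lived phagocytes that carry their antimicrobial proteins in granules. The granules are filled in sequence while the cell matures: primary (azurophil) granules are loaded in promyelocytes, specific granules in myelocytes, and gelatinase granules later, so the mRNAs for each class mark a stage of development. S100a8 and S100a9, which together form calprotectin, are abundant cytosolic proteins of both neutrophils and monocytes. None of these genes is known as a product of resting CD4+ T cells, and the spleen is a site where granulocytes are held and can be formed.

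Total counts per library ranged from 10758571 to 24119489, with a median of 12268935. T cell genes were read from a list of 10, among them the CD3 chains and Cd4, whose summed normalized counts were 28800 to 84540 in the 18 libraries. The sum moves with stimulation and is no measure of purity. Cd28 averaged 2065 normalized counts in NAg and 26000 in NPI, and Tcf7 13510 in N0 and 2332 in NAg. By Xist and 4 Y-linked genes, every PI library, replicates 1 and 2 of T0 and replicate 3 of TAg came from male mice, and the others from female mice. Sex and PI culture therefore cannot be told apart in naive cells, and the male TAg replicate is given beside the PI results.

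The regulatory sequence before the start of a granule gene is where the myeloid factors C/EBP and PU.1 are known to act. RefSeq promoter windows (GRCm38.p6) were found for 9 of the 10 genes, Mmp9 being the exception, and their 250 upstream bases each matched the NCBIM37 genome, on which the counts were made, at 1 place. The C/EBP-type letters TTNNGNAA, read on both strands, occurred in 6 of the 9 windows, and in 36.8% of the 32851 windows of the whole table. The PU.1-type letters GAGGAA, also read on both strands, occurred in 6 of the 9 and in 23.3% of all windows, with 0 overlaps between both kinds of match. One window is shown for each class, from the gene with the highest normalized count in T0 among those with a window wholly before the annotated start. Each is written 5′ to 3′ on the strand of the gene, with the C/EBP-type letters in capitals. The windows lie at chr10:79348807-79349056 on the plus strand for Elane, chr9:110921546-110921795 on the plus strand for Ltf, chr9:7558179-7558428 on the plus strand for Mmp8 and chr3:90472743-90472992 on the plus strand for S100a8.
Elane: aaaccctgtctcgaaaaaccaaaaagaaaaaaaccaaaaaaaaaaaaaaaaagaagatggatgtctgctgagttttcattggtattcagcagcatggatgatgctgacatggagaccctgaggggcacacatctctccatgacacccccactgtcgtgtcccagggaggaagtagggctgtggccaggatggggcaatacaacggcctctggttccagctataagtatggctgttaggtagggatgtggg
Ltf: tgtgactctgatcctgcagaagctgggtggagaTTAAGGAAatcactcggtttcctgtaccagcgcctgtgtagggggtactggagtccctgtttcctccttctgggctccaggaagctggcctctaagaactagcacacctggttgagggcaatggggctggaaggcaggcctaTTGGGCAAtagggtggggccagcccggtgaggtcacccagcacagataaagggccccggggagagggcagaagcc
Mmp8: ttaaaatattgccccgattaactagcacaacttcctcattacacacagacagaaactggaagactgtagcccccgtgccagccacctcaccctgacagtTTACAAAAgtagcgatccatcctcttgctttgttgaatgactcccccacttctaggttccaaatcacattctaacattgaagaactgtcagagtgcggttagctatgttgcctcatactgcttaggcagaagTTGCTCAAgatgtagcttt
S100a8: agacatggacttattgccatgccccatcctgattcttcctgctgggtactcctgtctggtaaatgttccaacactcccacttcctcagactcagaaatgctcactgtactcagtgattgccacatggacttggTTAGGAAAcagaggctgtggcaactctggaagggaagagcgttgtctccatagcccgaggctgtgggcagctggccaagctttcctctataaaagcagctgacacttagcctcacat
The Elane window, like those of Mpo and Camp, holds no TTNNGNAA, whereas those of Ltf and Mmp8 hold 2 each and that of S100a8 holds 1.

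The members lie on 5 chromosomes of NCBIM37. Ltf (chr9:110921796-110945270), Camp (chr9:109749889-109751970) and Ngp (chr9:110322254-110325514) lie near each other on chromosome 9, which also holds Mmp8, and S100a8 (chr3:90472993-90473956) and S100a9 (chr3:90496554-90499643) lie close together on chromosome 3. Exons of Mpo share 512 bases with Gm11505 on the opposite strand, and since the strand setting of the counting is not stated, reads of both genes cannot be told apart there.

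In the resting samples, which chose the genes, all 10 were higher in T0 than in N0 in every replicate, without overlap, and the fold change of the group means ran from 12.3 for Mmp8 to 50.1 for Ltf. The sum of normalized counts over the 10 genes was 202, 119 and 77.4 in the replicates of N0 and 3416, 2044 and 3386 in those of T0. Of all tested genes, 13.1% were higher in T0 than N0 without overlap, and 8.42% were higher at an adjusted p under 0.05. Nothing is read from the members' count, since this contrast selected them. In bulk samples, fewer cells of a type and less RNA per cell cannot be told apart.

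Among the primary granule genes, Elane had normalized counts of 55.7, 53.0 and 88.2 in T0 and of 5.94, 3.13 and 0.992 in N0, a log2 difference of 4.24 ± 0.49 (SE). Mpo had 319, 305 and 526 in T0 and 41.6, 20.9 and 14.9 in N0, a log2 difference of 3.88 ± 0.49. Replicate 3 of T0 was the highest for both, and their ratio, Elane over Mpo in RPKM, was 0.64 ± 0.01 (SD, n = 3) in T0. Ltf had 518, 176 and 498 in T0 and 14.9, 0 and 8.93 in N0, the widest spread among the T0 replicates at a coefficient of variation of 48.4%. Camp had 128, 54.8 and 112 in T0 against 7.93, 2.09 and 1.98 in N0, and Ngp had 556, 250 and 546 against 9.91, 12.5 and 4.96. Lcn2 had 155, 80.4 and 184 in T0 against 5.94, 2.09 and 2.98 in N0. In replicate 2 of T0 each of these 4 specific granule genes was at its lowest, and still above every N0 replicate.

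Of the metalloproteases, Mmp9 had the tightest T0 replicates, with 319, 295 and 289 against 34.7, 14.6 and 16.9 in N0, and a coefficient of variation of 5.37%. Mmp8 had 73.4, 64.5 and 50.8 against 3.96, 9.40 and 1.98. The neutrophil and monocyte gene S100a8 had 760, 440 and 599 in T0 against 41.6, 30.3 and 16.9 in N0, and S100a9 had 532, 326 and 492 against 35.7, 24.0 and 6.94. Both subunits moved together over the T0 replicates, with a ratio of S100a9 to S100a8 in RPKM of 0.57 ± 0.05.

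**Figure D1:**
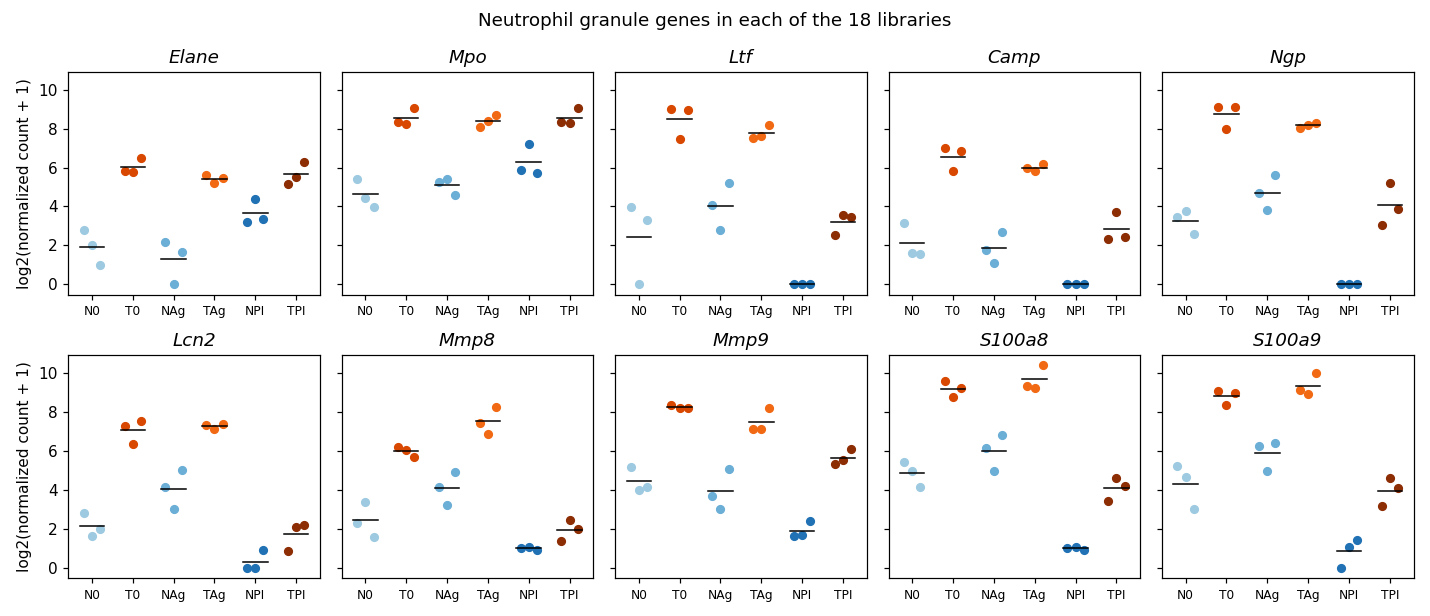
Log2(normalized count + 1) of each of the 10 genes on the vertical axis against the 6 groups. Points are single libraries and lines the mean of 3 replicates. The T0 and TAg points lie above the N0 and NAg points in every panel, whereas the TPI points stay at that height only for Elane and Mpo.

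Compared per length, as reads scaled by exon length and library size (RPKM), the calprotectin genes stood highest. In T0 the RPKM was 112 ± 29.9 (SD, n = 3) for S100a8, 63.1 ± 15.3 for S100a9 and 27.1 ± 10.4 for Ngp. It was 11.99 ± 4.71 for Camp, 10.6 ± 5.13 for Ltf and 8.20 ± 2.65 for Mpo, 3 neighbors that lie within each other's spread. Mmp9 at 6.23 ± 0.334, Elane at 5.22 ± 1.56, Lcn2 at 4.45 ± 1.70 and Mmp8 at 1.88 ± 0.339 closed the order. After the Ag injection S100a8 at 161 ± 77.1, S100a9 at 96.0 ± 41.3 and Ngp at 17.3 ± 1.45 again led, and Mmp8 stood at 5.89 ± 2.87.

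The stimulated samples, outside the resting contrast that chose the genes, addressed whether the difference between tolerized and naive samples is present after Ag. Earlier results of these data were known when the genes were chosen, so these tests are not an independent check. All 10 genes were higher in TAg than in NAg by edgeR's quasi-likelihood test, against 20.9% of all tested genes. In all 10 the replicates did not overlap, as was true of 24.8% of all genes. The median log2 fold change of the 10 was 3.45, and that of all tested genes was 0.01. Elane, which encodes neutrophil elastase, had normalized counts of 48.4, 35.8 and 43.0 in TAg and of 3.596, 0 and 2.20 in NAg. With at most 3 counts in any NAg library, its level was at least 12.2-fold higher in TAg (adjusted p = 4.28e-06). Mpo, encoding myeloperoxidase, had 266, 328 and 417 in TAg and 37.2, 41.1 and 23.1 in NAg, a log2 fold change of 3.32 ± 0.48 (SE, adjusted p = 1.22e-04). The TAg replicates of both genes lie together, well above each NAg replicate.

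The specific granule genes followed. Ltf encodes the iron-binding protein lactoferrin, and its normalized counts were 181, 192 and 286 in TAg and 15.6, 5.87 and 36.3 in NAg, a log2 fold change of 3.48 ± 0.65 (adjusted p = 1.45e-03). Camp, the gene of the cathelicidin precursor, had 62.8, 56.0 and 70.7 in TAg against 2.40, 1.18 and 5.499 in NAg. Ngp, whose product neutrophilic granule protein resembles the cystatins, had 262, 293 and 309 against 25.2, 12.9 and 47.3. For Camp and Ngp the log2 fold changes were 4.31 ± 0.53 (adjusted p = 3.00e-06) and 3.32 ± 0.50 (adjusted p = 3.10e-04). Lcn2, encoding the siderophore-binding lipocalin NGAL, had 160, 136 and 163 in TAg against 16.8, 7.05 and 30.8 in NAg, a log2 fold change of 3.05 ± 0.37 (adjusted p = 2.92e-06). In TAg the highest replicate of Camp, Ngp and Lcn2 exceeded the lowest by 1.26, 1.18 and 1.20 times, whereas in NAg replicate 3 was the highest and replicate 2 the lowest for all 4 specific granule genes.

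Of the metalloproteases, Mmp8 encodes neutrophil collagenase and Mmp9 gelatinase B. Mmp8 had normalized counts of 173, 116 and 303 in TAg and 16.8, 8.22 and 28.6 in NAg, a log2 fold change of 3.45 ± 0.39 (adjusted p = 1.01e-06). Mmp9 had 140, 136 and 293 in TAg and 11.99, 7.05 and 31.9 in NAg, a log2 fold change of 3.46 ± 0.44 (adjusted p = 2.16e-05). Replicate 3 of TAg, from a male mouse, was the highest for both genes. The calprotectin subunits showed the same high replicate. S100a8 had 651, 602 and 1340 in TAg against 69.5, 30.5 and 111 in NAg, and S100a9 had 550, 482 and 1022 against 75.5, 30.5 and 82.5. Their log2 fold changes were 3.61 ± 0.43 (adjusted p = 2.36e-05) and 3.44 ± 0.43 (adjusted p = 3.61e-05).

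Between T0 and TAg the genes stayed within 1 on the log2 scale, with the exception of Mmp8. Mmp8 was higher in every TAg replicate, by 1.65 ± 0.32 on the log2 scale. The remaining 9 values of TAg against T0 ran from -0.85 ± 0.49 for Ltf to 0.61 ± 0.36 for S100a9, and among them Elane alone did not overlap between the groups. Of the 17240 tested genes, 5463 were higher and 5655 lower in TAg than T0 without overlap. In naive cells, Ngp and Lcn2 were higher in every NAg replicate than in every N0 replicate, as were 5769 of the 17240 tested genes. For Ngp and Lcn2 the fold changes of the group means were 3.12 and 4.96. For the other 8 genes the replicates overlapped, and the mean in NAg over that in N0 ran from 0.58 for Elane to 3.49 for Mmp8. These values share the resting samples that chose the genes and carry no test.

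With PI, most members were lower than with Ag. By the same test 8 of the 10 genes were lower in TPI than in TAg, against 32.3% of all tested genes, and the median log2 fold change of the 10 was -4.34 where that of all genes was 0.01. The exceptions were the primary granule genes. Mpo had normalized counts of 326, 306 and 530 in TPI against 266, 328 and 417 in TAg, a log2 difference of 0.21 (95% confidence interval -0.60 to 1.01, adjusted p = 0.651 by edgeR). Elane had 34.7, 43.9 and 77.7 in TPI against 48.4, 35.8 and 43.0 in TAg, a log2 difference of 0.31 (95% confidence interval -0.40 to 1.02, adjusted p = 0.451 by edgeR). The replicates of both groups overlapped for both genes. With total counts in place of TMM scaling, and without replicate 3 of TPI, the signs of both differences turned, with values for Elane of -0.15 and -0.12 and for Mpo of -0.26 and -0.092.

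After PI the specific granule genes had at most 33 counts in a library, and Lcn2 at most 5. Ltf had 4.85, 11.0 and 10.2 normalized counts in TPI and Camp 4.04, 12.1 and 4.36, and the log2 fold changes against TAg were -4.67 ± 0.71 (adjusted p = 1.25e-04) and -3.29 ± 0.44 (adjusted p = 1.77e-06). Ngp had 7.27, 36.2 and 13.8 in TPI, and Lcn2 had 0.808, 3.29 and 3.63. Their log2 fold changes against TAg were -4.01 ± 0.52 (adjusted p = 2.96e-05) and -5.84 ± 0.48 (adjusted p = 1.63e-09). All TPI replicates of the 4 genes lay below all TAg replicates, including the male TAg replicate.

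Both metalloproteases fell, but unequally. Mmp8 had 1.62, 4.39 and 2.90 normalized counts in TPI, a log2 fold change against TAg of -6.06 ± 0.49 (adjusted p = 1.12e-09), whereas Mmp9 had 39.6, 45.0 and 66.8, a log2 fold change of -1.90 ± 0.37 (adjusted p = 3.31e-04). The 95% confidence intervals were -7.08 to -5.04 for Mmp8 and -2.69 to -1.11 for Mmp9 and did not meet. The calprotectin genes were at 9.70, 23.1 and 17.4 for S100a8 and at 8.08, 23.1 and 16.0 for S100a9 in TPI. They fell by 5.72 ± 0.51 (adjusted p = 2.88e-07) and by 5.49 ± 0.51 (adjusted p = 4.17e-07) on the log2 scale. With sex as a covariate, a setting chosen after seeing the data, the same number of members, 8, was lower in TPI than TAg. Part of the contrast between PI and Ag is the culture itself, which cannot be told apart from PMA and ionophore here, since no cultured but unstimulated sample was among the groups.

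In naive cells the counts were lower. Of the 10 genes, 8 were lower in NPI than in NAg, against 31.0% of all tested genes, and 2 were higher, against 33.5%. The median log2 fold change was -5.03 as fitted, and -2.59 with the 8 genes that had at most 3 counts in the lower group set to their bound. Camp, counted as lower, had at most 5 counts in a NAg library and was at least 1.01-fold higher in NAg. The 2 that were higher were the primary granule genes. Elane had 8.32, 19.8 and 9.34 normalized counts in NPI against 3.596, 0 and 2.20 in NAg, at least 3.59-fold higher (adjusted p = 2.55e-03). Mpo had 57.2, 148 and 50.9 in NPI against 37.2, 41.1 and 23.1 in NAg, a log2 fold change of 1.32 ± 0.53 (adjusted p = 0.0448). The call of Mpo was lost in 9 of the alternatives, among them the fit without replicate 2 of NPI, in which the log2 fold change was 0.68. Ltf, Camp and Ngp had 0 counts in all 3 NPI libraries, which allows up to 2.55 to 3.30 normalized counts in a library, and S100a8 had 1 count in each. Without replicate 3 of NAg, the highest of its group for these genes, 5 members were lower in NPI, and Ltf, Camp and Mmp9 no longer passed (adjusted p of 0.0582, 0.0744 and 0.109).

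The gap between tolerized and naive samples was present with PI, with the reservation of low counts. Of the 10 genes, 7 were higher in TPI than in NPI, against 18.2% of all tested genes, and Ltf, Lcn2 and Mmp8 did not pass (adjusted p of 0.0981, 0.144 and 0.34). The median log2 fold change was 3.84 as fitted and 2.15 with the 7 genes that had at most 3 counts in the lower group set to their bound, and that of all tested genes was -0.04. Elane and Mpo were higher by 2.09 ± 0.40 (adjusted p = 2.12e-04) and 2.21 ± 0.41 (adjusted p = 8.44e-04) on the log2 scale, and Mmp9 by 4.06 ± 0.65 (adjusted p = 1.53e-04), from 2.08, 2.20 and 4.24 normalized counts in NPI. Ngp was at least 6.39-fold higher (adjusted p = 0.0115) and Camp at least 2.28-fold higher (adjusted p = 2.04e-03). S100a8 and S100a9, at least 5.595-fold and 5.25-fold higher, passed narrowly (adjusted p of 0.0457 and 0.0427). Both calls were lost without any 1 of the NPI replicates and without replicate 2 or 3 of TPI, which left 5 to 7 members over the left-out libraries. All of the PI libraries came from male mice, so that the comparison lies within 1 sex.

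The difference between both gaps was tested directly. The gap with PI differed from that with Ag for 1 of the 10 genes, Elane, against 37.2% of all tested genes. With NAg set to 3 counts in each library, the difference of its gaps, PI minus Ag, was -1.55 on the log2 scale, and a lower level in NAg makes it larger in size (adjusted p of the fitted difference = 0.0272 by edgeR). The call was lost without replicate 2 or 3 of NAg, replicate 1 of TAg or replicate 2 of NPI, which left 0 members. For Mpo the difference was -1.11 ± 0.65 (adjusted p = 0.215 by edgeR). Of the 10 genes, 7 had at most 3 counts in every NPI library, and their differences were loosely estimated. Those of Ltf, Ngp and Mmp8 were 2.64 ± 3.29, 3.85 ± 2.76 and -2.02 ± 1.53. The lack of a call therefore does not show that the gaps were alike with PI and Ag.

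**Figure D2:**
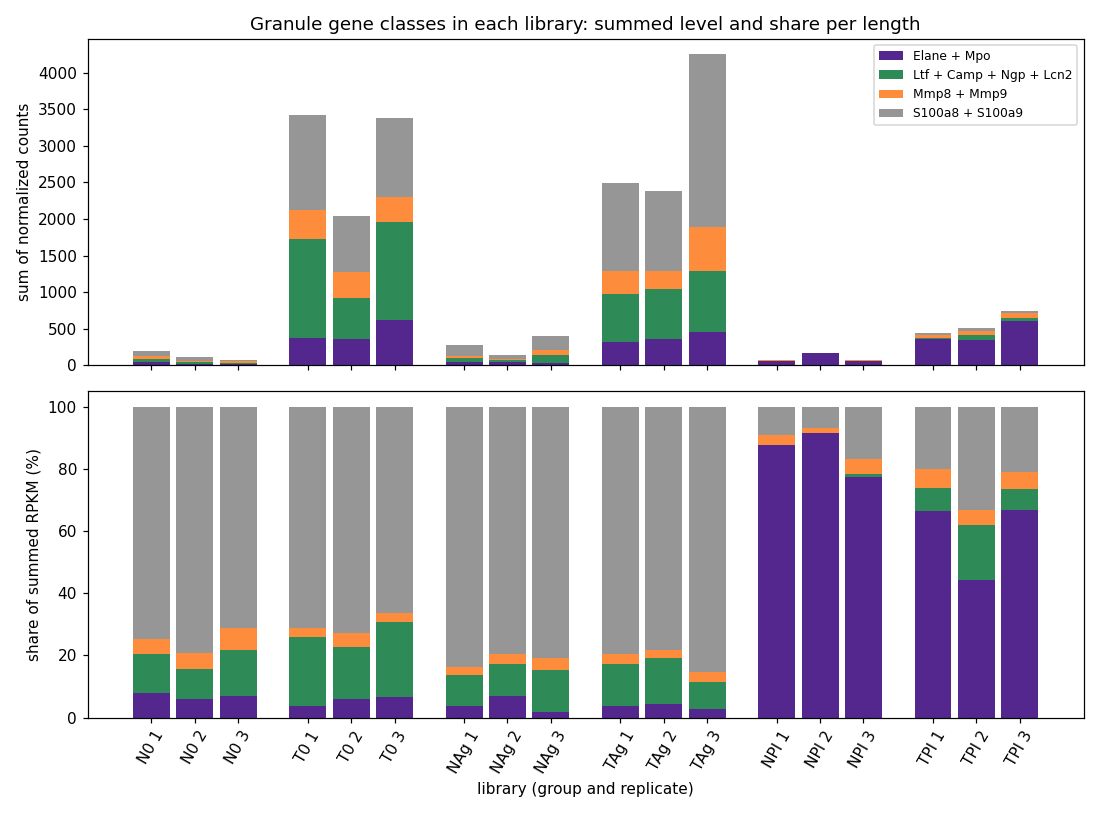
Upper panel, sum of normalized counts of the 10 genes in each of the 18 libraries, stacked by granule class. Lower panel, share of each class in the summed RPKM of the 10 genes, in percent. Elane and Mpo hold 44.3% to 66.8% of the RPKM in TPI and 77.3% to 91.6% in NPI, against 2.68% to 4.29% in TAg.

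The primary granule genes held 5.51% of the summed RPKM in T0 on average, 3.596% in TAg and 59.2% in TPI, and 6.97%, 4.17% and 85.5% in N0, NAg and NPI. The share of the calprotectin genes was 70.1% in T0, 81.1% in TAg and 24.8% in TPI. The summed normalized count of the primary genes was 449 ± 144 (SD, n = 3) in T0, 380 ± 73.9 in TAg and 440 ± 146 in TPI, which differ by less than the spread between replicates. The summed count of the specific granule genes was 1086 ± 455, 724 ± 91.3 and 37.2 ± 23.2 in the same groups. These shares are descriptions of the same libraries and carry no test.

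The replicates of a group differed more for these genes than for most. The biological coefficient of variation of the edgeR model had a median of 35.5% over the 10 genes and of 12.98% over all tested genes, and ran from 26.5% for Elane to 62.9% for Ltf. The deviations were shared between genes. Replicate 2 of T0 was the lowest of its group for 8 of the 10 genes, replicate 3 of TAg the highest for 9, replicate 2 of NAg the lowest for 9 and replicate 1 of N0 the highest for 8. Across the 18 libraries the deviations from the group means of S100a8 correlated with those of S100a9, Ngp and Mmp8 at r of 0.84, 0.82 and 0.82, and those of Mpo with those of Ngp and Mmp8 at r of -0.01 and -0.05. The points share libraries and depth, and the correlations are descriptions.

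**Figure D3:**
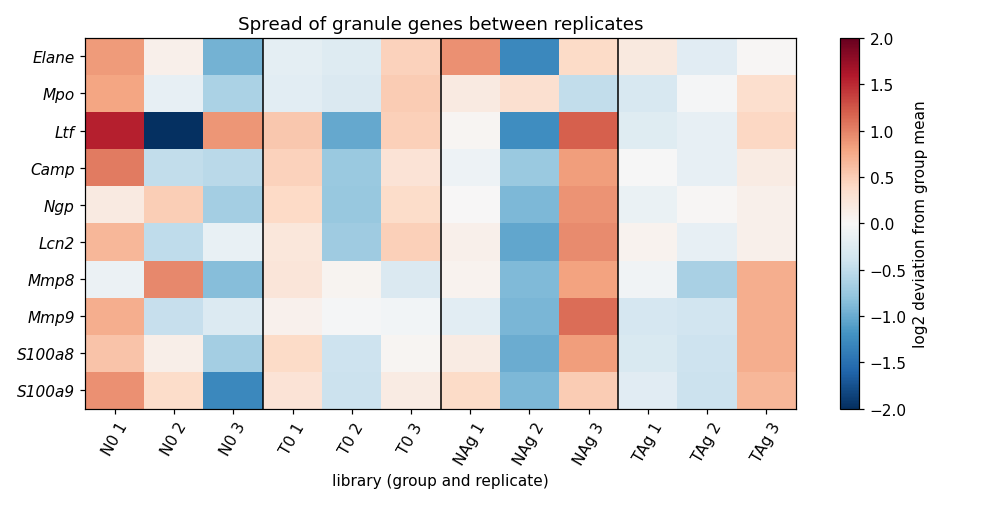
Deviation of log2(normalized count + 1) from the group mean, in color from -2 to 2, for the 10 genes (rows) in the 12 libraries of N0, T0, NAg and TAg (columns). Most genes of a library deviate to the same side, as in replicate 2 of T0 (low) and replicate 3 of TAg (high).

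Other neutrophil genes, from 3 lists drawn up with earlier results of these data known, were counted beside the members. Of 42 genes on the lists, 39 were tested. In TAg against NAg 28 were higher (20.9% of all tested genes) and 1 was lower (18.5%), and in TPI against NPI 12 were higher (18.2%). In T0 against N0, the contrast that chose the members, 31 were past the threshold as higher (8.42% of all tested genes), a count from which nothing is read, for these lists as for those of other cells. In the order T0 against N0, TAg against NAg and TPI against NPI, the median log2 fold changes were 2.38, 2.09 and 0.90 as fitted, and 1.88, 1.43 and 0.32 with genes near 0 at their bound, against -0.08, 0.01 and -0.04 over all genes. With the study's limits, a fold of 2 and an average count above 50 in the higher group, added to edgeR's adjusted p, the counts were 11, 13 and 4. The study also required significance by DESeq2, which was not applied here. With sex as a covariate, and without these limits, the counts were 22, 23 and 13.

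Of 9 precursor genes tested, 3 were lower in TPI than in TAg, a share near the 32.3% of all tested genes. Among the others 1 was higher (31.5% of all tested genes), and 5 did not pass. Their log2 fold changes had a median of -0.48. Prtn3, encoding proteinase 3, and Ctsg, encoding cathepsin G, are primary granule proteases like elastase. Prtn3 had 66.3, 49.5 and 133 normalized counts in T0, 50.6, 37 and 64.5 in TAg and 48.5, 57.1 and 85.7 in TPI, and Ctsg had 30.1, 34.4 and 65.2, 29.7, 38.2 and 40.0, and 32.3, 30.7 and 37.8. The log2 differences of TPI against TAg were 0.33 ± 0.43 (adjusted p = 0.525 by edgeR) for Prtn3 and -0.09 ± 0.34 (adjusted p = 0.833 by edgeR) for Ctsg. Both were higher in TPI than in NPI, by 2.47 ± 0.51 (adjusted p = 1.04e-03) and 1.95 ± 0.40 (adjusted p = 4.46e-04). Hp, the gene of haptoglobin, was lower in TPI than TAg by 3.66 ± 0.30 on the log2 scale (adjusted p = 1.14e-10). Cebpe, which encodes the factor C/EBPε of late granule formation, had 9.7, 6.2 and 11.5 in T0, 4.4, 3.6 and 3.1 in TAg and at most 1.5 in TPI. Its TAg values already lie near the level of 3 counts per library. Gfi1, a repressor that T cells also make, was the gene that was higher, with 2102 to 2474 in TAg and 5869 to 6232 in TPI.

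Of 18 tested genes of mature neutrophils, 14 were lower (32.3% of all tested genes) and 1 was higher (31.5%) in TPI than in TAg. In NPI against NAg 4 were lower (31.0% of all tested genes) and 2 higher (33.5%), both shares under those of all genes, and 12 did not pass. Csf3r, the receptor of G-CSF, had 248, 241 and 576 normalized counts in TAg and 29.9, 32.9 and 39.2 in TPI, a log2 fold change of -3.38 ± 0.46 (adjusted p = 2.06e-05). Cxcr2, the receptor for neutrophil-attracting chemokines, was lower by 1.42 ± 0.21 on the log2 scale (adjusted p = 2.31e-06), and with PI its levels of 62.7 to 86.6 in NPI overlapped with 63.0 to 69.7 in TPI. The gene that was higher was Il1r2, a decoy receptor of IL-1 that activated T cells also express, with 1516 to 2343 in TPI and 116 to 184 in TAg. Among the 12 other granule genes 7 were lower and 1 was higher. Lyz2, encoding lysozyme of neutrophils and macrophages, was lower by 1.18 ± 0.26 (adjusted p = 1.39e-03), and Cyba, an oxidase subunit that other leukocytes share, was lower by 0.78 ± 0.13 (adjusted p = 3.08e-05). Cybb and Itgam, also shared with other leukocytes, did not pass, at -0.41 ± 0.37 (adjusted p = 0.347 by edgeR) and -0.70 ± 0.30 (adjusted p = 0.0601 by edgeR).

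**Figure D4:**
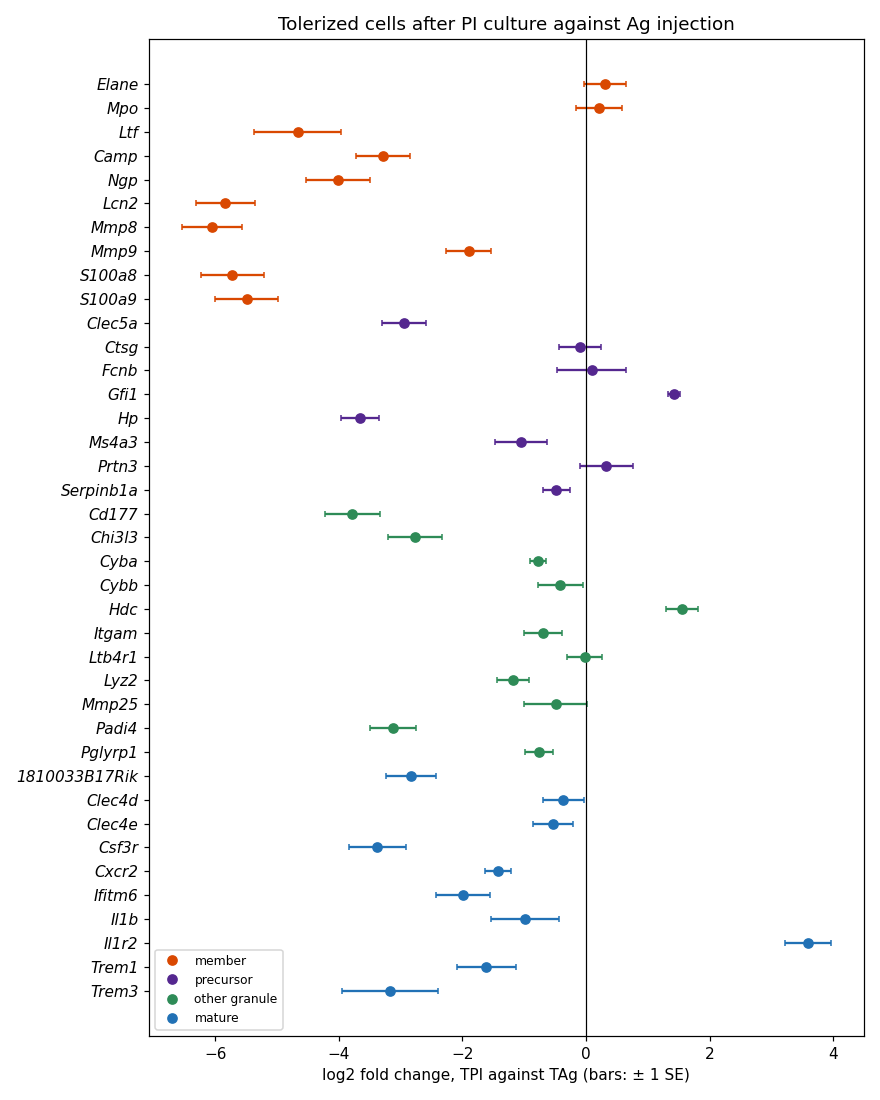
Log2 fold change of TPI against TAg with its standard error, for the 10 members and 29 genes of the 3 other neutrophil lists; 10 genes with at most 3 counts in every TPI library are left out. Elane, Mpo, Prtn3 and Ctsg lie near 0, whereas Lcn2, Mmp8, S100a8 and S100a9 lie below -5.

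Markers of other cells that could remain in the samples were read beside these results. Of 8 genes of eosinophils, basophils and mast cells, 7 were higher in TAg than NAg, against 20.9% of all tested genes, and 6 were past the threshold in T0 against N0, where 8.42% were. Their summed level was 38.7 to 92.1 normalized counts in N0, 181 to 456 in T0, 55.1 to 69.3 in NAg, 301 to 738 in TAg, 57.7 to 127 in NPI and 119 to 177 in TPI. Prg2, encoding the eosinophil major basic protein, and Prss34, a basophil protease, had log2 fold changes in TAg against NAg of 3.63 ± 0.60 (adjusted p = 1.91e-04) and 4.23 ± 0.94 (adjusted p = 3.05e-03). Mcpt8, another basophil protease, was higher by 3.54 ± 0.77 (adjusted p = 1.98e-03) and Gata2, a factor of mast cells and progenitors, by 1.77 ± 0.33 (adjusted p = 1.53e-04).

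Of 14 tested monocyte and macrophage genes, 3 were higher in TAg than NAg and 3 in TPI than NPI, shares near the 20.9% and 18.2% of all tested genes. In both comparisons, and past the threshold in T0 against N0, these were Ccr2, Ly6c2 and Fn1, and in TAg against NAg they were higher by 1.90 ± 0.28, 1.95 ± 0.36 and 1.98 ± 0.25 on the log2 scale (adjusted p of 1.41e-04, 7.42e-04 and 6.84e-06). Csf1r, the receptor of M-CSF that defines the lineage, had 120, 128 and 178 in TAg and 446, 109 and 83.6 in NAg and did not pass (adjusted p = 0.38 by edgeR), and 8 of the 14 were lower in TAg, against 18.5% of all tested genes. The summed level of the list was 773 to 1077 in N0, 2249 to 2583 in T0, 720 to 2350 in NAg, 1328 to 1960 in TAg, 779 to 1088 in NPI and 1380 to 1732 in TPI.

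In TAg against NAg 3 of 5 progenitor genes and 4 of 13 erythroid genes were higher, against 20.9% of all tested genes, and in T0 against N0 3 and 3 were past the threshold as higher, where 8.42% were. In TAg against NAg 1 erythroid gene was lower, as were 18.5% of all tested genes. It was Tfrc, the most abundant of its list, lower by 1.02 ± 0.13 on the log2 scale (adjusted p = 8.83e-06 by edgeR). Kit, the stem cell factor receptor, had 352, 405 and 233 normalized counts in T0 and 176, 62.6 and 86.3 in N0, and Car1, an erythroid carbonic anhydrase, had 266, 111 and 230 against 25.8, 14.6 and 15.9. After Ag the Kit replicates overlapped, at 225, 174 and 387 in TAg and 218, 148 and 174 in NAg. Car1 was higher in TAg than NAg by 1.97 ± 0.59 on the log2 scale (adjusted p = 0.0185 by edgeR). The adult beta globin gene Hbb-b1 was highest in replicate 1 of T0 at 903 and in replicate 3 of TAg at 522, the latter also the library with the highest member sum, 4248. Hbb-b1 did not pass in TAg against NAg (adjusted p = 0.414 by edgeR). The summed level of 7 B cell genes was 455 to 749 in TAg and 423 to 1609 in NAg, which overlap. It differed widely between replicates, with 2032, 354 and 417 in N0 and 2915, 1036 and 484 in T0, in replicate order. The library highest in B cell genes was also the highest in member sum in N0, T0, NAg and NPI, but not in TAg or TPI. The summed platelet genes were at 271 to 492 in TAg and 107 to 120 in TPI. Of the 8, 7 were lower in TPI (32.3% of all tested genes), as the specific granule genes were. The part of these cells in the members' values was not tested.

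The genes with the pattern most like the members over the 18 libraries were found by the correlation of log2(normalized count + 1) with the mean of the 10 genes. They were Abca13 (r = 0.98), Hp (0.96), Gda (0.95), Lyz2 (0.94), Lrg1 (0.94), Vwa5a (0.93), Itgb2l (0.93), Tal1 (0.93), Chi3l3 (0.93) and Padi4 (0.93). Abca13, a large transporter of the ABC family, had mean normalized counts of 3.01 in N0, 70.0 in T0, 9.72 in NAg, 73.2 in TAg, 0.630 in NPI and 6.53 in TPI. Lrg1, a leucine-rich glycoprotein of neutrophil granules, had 25.6 in T0, 48.2 in TAg and 1.37 in TPI. Chi3l3, a chitinase-like protein of myeloid cells, had 136 in T0, 33.6 in TAg and 4.87 in TPI, and Padi4, the enzyme that citrullinates histones in neutrophils, had 37.3, 52.0 and 5.65. Of these 10 genes, 9 were again among the first 10 without any 1 of the T0 replicates. The 18 libraries include the T0 and N0 samples that chose the members, so genes with the same step rank high by construction. The ranking is therefore a description, and the cell type that made these transcripts was not tested.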

How the data were processed

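RNA-seq of enriched CD4+ T cells was measured in 18 libraries, 3 in each of 6 groups. Per the submitters' processing notes the authors aligned paired-end reads with TopHat2 2.1.1 to mm9 and counted them per Ensembl gene with HTSeq 0.9.1. The notes also name DESeq2 1.18 and edgeR 3.24. The deposited values are raw counts, not normalized. The strand and overlap settings are not given in the sources used here. Symbols, positions and exon lengths came from an annotation of NCBIM37, for 37205 of 37991 genes.

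Here R 4.3.3, edgeR 4.0.16 and DESeq2 1.42.0 were used. Counts were scaled by TMM, genes averaging at least 3 normalized counts in 1 group were kept, and 1 model over all 18 libraries gave each contrast by the quasi-likelihood test of edgeR, with robust estimation. An adjusted p is a Benjamini-Hochberg value over the 17240 tested genes, with 0.05 as threshold. The tests were checked on simulated data, drawn with the spread typical of genes at the same level, which is under that of each member. Changes were placed only in genes with higher counts, so the check does not cover members near 0. Log2 fold changes carry standard errors and levels SDs. Folds against a group with at most 3 counts in every library are lower bounds, from 3 counts per library, and cover counting error only. The files' total counts set the precision of low genes.

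The members and lists were chosen with earlier results of these data known. The rule for names took the 10 members, the 4 most abundant of each list, Cebpe, Prtn3, Ctsg, Cxcr2 and Csf3r, and the genes most correlated with the members. Of the genes of other lists, only a part is given, picked after their values were seen, and 1 correlated gene is not reported here. Alternatives were other scalings, DESeq2, no filter, only the groups compared, the study's limits, the replicate number as a block, sex as a covariate and leaving out each library.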

Additional observations from a re-analysis of the deposited data

Results flagged for a closer look

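For Elane the gap between tolerized and naive samples differed between PI and Ag by a test of the difference itself, with a fitted value of -2.29 on the log2 scale (adjusted p = 0.0272 by edgeR). The fitted value depends on the prior count, because each NAg library had at most 3 counts, and with NAg set to 3 counts per library the difference was -1.55. The group means of normalized counts were 52.1 in TPI, 12.5 in NPI, 42.4 in TAg and 1.93 in NAg. Under the other settings that keep all libraries its adjusted p ran from 0.0125 to 0.0302. It ran from 0.00625 to 0.0943 with 1 library left out.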

How the results depend on the processing

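The count of members higher in TAg than NAg (9 or 10) and lower in TPI than TAg (8) held under every alternative run. With the study's limits on fold and level, 3 members were higher in TPI than NPI and 2 lower in NPI than NAg, and 11, 13 and 4 other neutrophil genes were higher in T0, TAg and TPI than in the naive group, because low genes could not pass. Leaving out 1 library gave 5 to 7 members higher in TPI than NPI, 5 to 8 members lower in NPI than NAg and 0 to 1 with a differing gap. The DESeq2 Wald test gave 2 with a differing gap, the other being Ngp. With total counts the summed level in T0 was 3898, and Elane and Mpo in TPI against TAg were at -0.15 and -0.26. With 1 library left out they ran from -0.12 to 0.55 and from -0.092 to 0.39, lowest without replicate 3 of TPI. None of these values passed the test. Differences of gap with no call changed sign for S100a8 (-0.042 with total counts, -0.20 to 0.74 with 1 library left out), Mmp9 (-0.23 to 1.07), S100a9 (-0.16 to 1.09) and Lcn2 (-1.08 to 1.37). The cause was not tested. Of the 708 recomputed log2 fold changes of tested contrasts, 666 kept direction and call, 29 lost the call, 4 gained it and 9 reversed, and 117 of 120 values of T0 against N0 moved by less than the replicate SD.

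Total counts shifted the median of all genes in TPI against TAg by -0.47, and moved the share of calls that were higher from 49.4% to 30.1%, in T0 against N0 from 41.3% to 65.5%, in TAg against NAg from 53.1% to 74.9%, in TPI against NPI from 48.0% to 34.9% and in the gap from 46.3% to 24.6%.

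Replicate numbers did not pair the samples: the deviations of same-numbered libraries correlated at -0.07 to 0.11 in 15 pairs, 1 of them over 0.1, and the same number gave the best correlation in 11 of 30 cases. With the replicate number as a block 8 members were higher in TPI than NPI, Ltf being added (adjusted p = 0.0465), and Mpo in NPI against NAg lost its call (adjusted p = 0.0597). A depth of 10758571 to 24119489 counts leaves members at 0 in NPI limited to under 3.30 normalized counts in each library.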

Other observations

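Within groups, genes whose deviations followed the mean deviation of the members closely over the 18 libraries included H2-Ob (r = 0.90), Adm (0.88), Iqsec1 (0.88) and Cyp4f18 (0.87). H2-Ob, a class II antigen presentation gene of B cells, had mean normalized counts of 263 in N0 and 446 in T0, and of 190 in NAg and 249 in TAg. The correlations were among the highest of 17240 genes and are a description with no test.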
